A study of Mus musculus with 2 samples.

Results

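The rows described here are the variable (V) segments of the mouse immunoglobulin heavy chain. They were chosen by name and annotation, as rows whose symbol starts with Ighv and whose type includes IG_V_gene, which gave 113 of 55401 rows of the deposited table. The rule itself uses no measured value. The samples were myeloid-derived suppressor cells (MDSCs), immature myeloid cells of tumour-bearing animals that restrain T cells, from 8-week-old C57BL/6 mice. One library came from Mettl3fl/fl mice, in which Mettl3 is flanked by loxP sites but no Cre is present, and the other from LysM-cre, Mettl3fl/fl mice, in which Cre is expressed from the lysozyme 2 locus of myeloid cells. Both groups carried MC38 colon tumours, although 1 label field of the LysM-cre sample reads MC39. After magnetic-bead isolation the cells spent 24 h in co-culture with MC38 cells. The sources used here do not give how many mice went into a library. Each genotype had 1 library, so no difference below has a replicate check and no p-value is given.

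An antibody heavy chain gene is assembled in developing B cells by joining 1 V segment to a D and a J segment, and each B cell or plasma cell then transcribes the segment it has joined. V segments are grouped into families by sequence, numbered in the symbol directly after Ighv. Read counts over the V segments therefore show which segments the B-lineage cells of a sample use, weighted by how much heavy chain RNA each cell holds, which is highest in plasma cells. Myeloid cells do not rearrange these segments. In bulk RNA, fewer cells of a type and less RNA per cell cannot be told apart.

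The 113 segments lie on the minus strand of chromosome 12, from chr12:113578504 to 116000461 (mm10), with Ighv5-2 nearest the D segments and Ighv1-85 farthest from them. All 113 had the same start and end in GENCODE M21 as in the table, and all 113 had a transcript there. Of these, 111 consisted of a short leader exon and a V exon, and Ighv1-16 and Ighv8-13 of a V exon alone. V exons were 294 to 351 bases long (median 305), and no V exon held an in-frame stop codon. The last 300 bases of the V exons on which the results turn are shown first, read 5′ to 3′ on the coding (minus) strand in mm10, with the in-frame cysteine codon near the 3′ end in capitals. That codon lies directly before the third complementarity-determining region, where V joins D and J. Ighv1-26 held the most counts in both libraries. Ighv5-12 had the lowest ratio between them. Ighv11-2 and Ighv12-3 are textbook segments of B-1a cells that bind phosphatidylcholine.
Ighv1-26 (chr12:114788372-114788671): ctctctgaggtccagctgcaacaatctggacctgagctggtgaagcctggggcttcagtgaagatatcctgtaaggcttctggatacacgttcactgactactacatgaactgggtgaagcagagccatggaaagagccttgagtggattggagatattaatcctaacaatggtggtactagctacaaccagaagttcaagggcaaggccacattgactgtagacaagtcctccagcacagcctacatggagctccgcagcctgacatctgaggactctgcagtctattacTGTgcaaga
Ighv5-12 (chr12:113702124-113702423): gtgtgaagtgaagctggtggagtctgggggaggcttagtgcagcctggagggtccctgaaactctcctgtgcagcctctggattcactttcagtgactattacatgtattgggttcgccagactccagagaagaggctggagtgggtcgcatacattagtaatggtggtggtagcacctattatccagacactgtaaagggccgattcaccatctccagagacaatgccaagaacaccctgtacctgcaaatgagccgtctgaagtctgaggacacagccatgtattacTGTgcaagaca
Ighv11-2 (chr12:114048241-114048540): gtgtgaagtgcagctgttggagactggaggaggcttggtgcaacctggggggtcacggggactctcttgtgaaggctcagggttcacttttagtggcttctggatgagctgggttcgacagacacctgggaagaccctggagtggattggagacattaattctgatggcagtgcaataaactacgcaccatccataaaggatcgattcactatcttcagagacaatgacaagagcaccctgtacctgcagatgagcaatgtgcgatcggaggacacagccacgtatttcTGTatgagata
Ighv12-3 (chr12:114366521-114366820): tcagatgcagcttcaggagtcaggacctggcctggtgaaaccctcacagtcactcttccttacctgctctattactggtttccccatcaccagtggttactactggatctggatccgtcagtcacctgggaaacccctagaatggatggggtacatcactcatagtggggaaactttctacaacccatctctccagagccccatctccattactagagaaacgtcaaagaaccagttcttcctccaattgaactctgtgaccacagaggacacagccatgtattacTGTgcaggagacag

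The last 36 bases of 7 further segments show how the end of the V exon varies between families, with the same codon in capitals. Ighv3-6, Ighv1-82, Ighv6-3 and Ighv9-3 followed Ighv1-26 in counts in the control, and Ighv3-4, Ighv3-1 and Ighv2-5 had the highest ratios.
Ighv3-6: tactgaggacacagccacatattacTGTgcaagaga
Ighv1-82: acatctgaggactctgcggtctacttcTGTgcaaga
Ighv6-3: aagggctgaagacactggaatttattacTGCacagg
Ighv9-3: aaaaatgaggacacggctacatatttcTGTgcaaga
Ighv3-4: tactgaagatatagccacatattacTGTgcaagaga
Ighv3-1: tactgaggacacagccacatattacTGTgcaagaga
Ighv2-5: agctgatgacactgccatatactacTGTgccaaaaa
An in-frame cysteine codon was found among the last 8 codons of 111 V exons, all but those of Ighv8-2 and Ighv8-9. In 63 of the 113 it was followed by the alanine and arginine codons seen in Ighv1-26, and 46 of those 63 were Ighv1 segments. In Ighv3-8 the codon found started at base 348 of 351, against base 297 in Ighv3-6, so it may be a different one.

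The floxed control library held 59506878 counts in all, against 59393864 for its LysM-cre-labelled counterpart. The targeted gene, Mettl3, held 1413 and 1333 counts, a ratio of CPM (counts scaled to the library total) of 0.945, with an exact 95% interval of 0.876 to 1.02. It was thus not lower beyond counting error, and directions refer to the label of the library. All 12 listed MDSC markers held counts in both libraries, with S100a8 at 1928 and 1578 FPKM (fragment counts relative to row length and library depth) and Ly6g at 44.5 and 31.3 FPKM. Of the 12, 8 were lower and 4 higher in the LysM-cre-labelled library, none by 2-fold, with a median log2 ratio of −0.15. Ccr2, a chemokine receptor of monocytes, and Itgam, an integrin of myeloid cells, were among the higher ones, with ratios of 1.26 and 1.13. Lyz2, the lysozyme gene at whose locus LysM-cre sits, differed most of the 12, with 474780 and 263725 counts (ratio 0.557, 0.554 to 0.559). The 95% intervals of ratios and shares describe counting error alone, and they are too narrow where PCR copies or both reads of a pair were counted.

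The heavy chain V segments together took a small and slightly lower share of reads in the LysM-cre-labelled library. They held 188559 counts in the control, 0.317% of the library (95% Clopper-Pearson interval 0.315% to 0.318%), and 166319 counts in the LysM-cre-labelled library, 0.280% (0.279% to 0.281%). The CPM ratio of the sums was 0.884 (95% interval 0.878 to 0.890). The kappa light chain V segments (100 Igkv rows) had a similar ratio, 0.857 (0.852 to 0.862), on 268894 and 230029 counts. So had the 8 heavy chain constant genes together, at 0.856 (0.853 to 0.858) on 1010076 and 862742 counts. The 3 lambda V rows were lower, at 0.707 (0.692 to 0.723) on 19223 and 13565 counts. Without Ighm, the constant gene of IgM, the other 7 constant genes held 651182 and 691763 counts, a ratio of 1.06 (1.06 to 1.07).

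Use was spread over many segments, and no single segment dominated either library. Ighv1-26 led in both, with 11147 counts in the control, 5.91% of all Ighv counts (95% interval 5.81% to 6.02%), against 8581 in the LysM-cre-labelled library, 5.16% (5.05% to 5.27%). Equal use of 113 segments would give each 0.885%. Per length, Ighv1-26 stood at 475 FPKM in the control against 367 in the LysM-cre-labelled library. Ighv3-6 came next in the control at 357 FPKM and 4.42% of Ighv counts, and stood at 244 FPKM and 3.42% in the LysM-cre-labelled library. The 5 leading segments of each library took 21.7% of Ighv counts in the control and 19.6% in the LysM-cre-labelled library, and the 10 leading segments took 35.8% and 35.0%. In each library 17 segments were enough to reach 50% of Ighv counts. The effective number of segments (inverse Simpson index, the number of equally used segments that would give the same concentration) was 43.8 in the control and 46.3 in the LysM-cre-labelled library. For the kappa V segments it was 34.9 and 39.4, with leading shares of 6.94% and 6.55%.

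**Figure D1:**
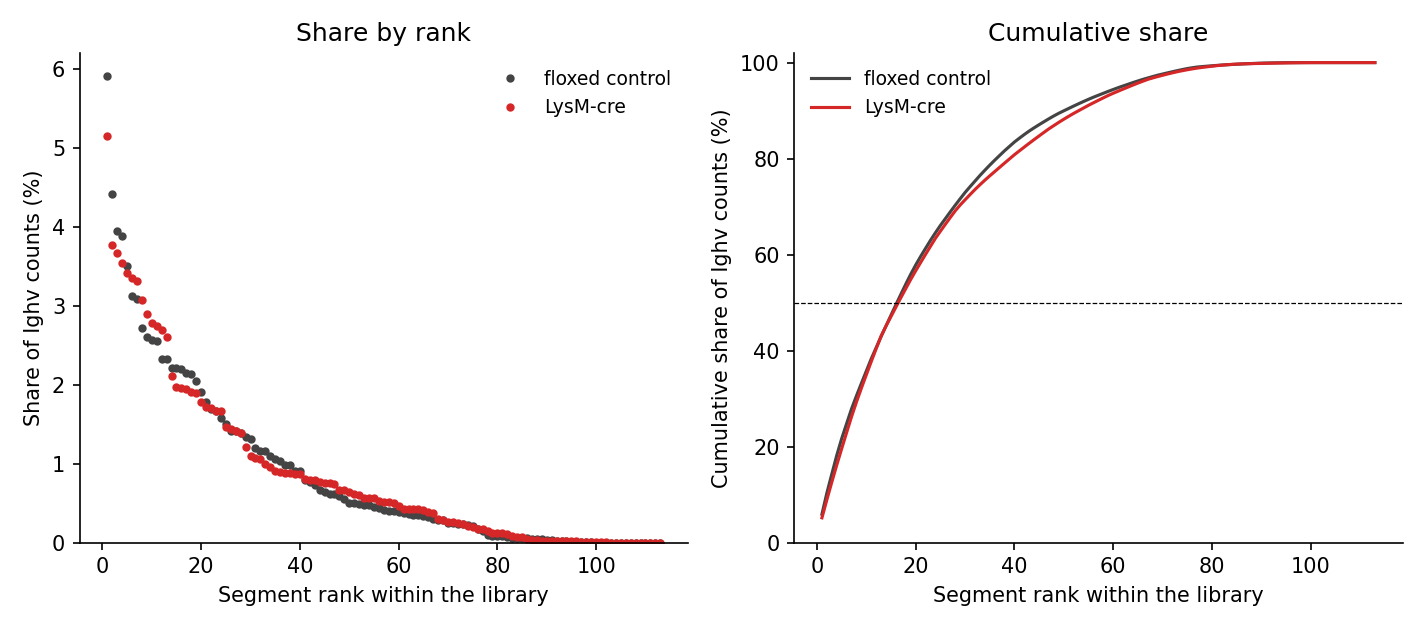
Share of all Ighv counts (left, %) and cumulative share (right, %) against the rank of the segment within each library, with the floxed control in dark grey and the LysM-cre-labelled library in red. Both curves cross the dashed 50% line at 17 segments, and the leading segment holds 5.91% in the control and 5.16% in the LysM-cre-labelled library.

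The same segments mostly led in both libraries. Of the 10 segments with the most counts in each, 8 were shared, and of the 20 with the most counts, 15. The shared leaders besides Ighv1-26 and Ighv3-6 were Ighv1-82 (288 and 244 FPKM), Ighv9-3 (282 and 252), Ighv6-3 (308 and 203), Ighv1-81 (248 and 218), Ighv1-9 (206 and 238) and Ighv8-8 (205 and 194). Each of these levels was within 2-fold between libraries. Ighv5-12 and Ighv1-19 were among the 10 leaders of the control only, at ranks 6 and 8, and stood at ranks 56 and 26 in the LysM-cre-labelled library. In their place stood Ighv1-52, which moved from rank 33 to rank 7, and Ighv1-53, from rank 12 to rank 3. Across the 92 segments with a mean of 50 or more counts over both libraries, CPM correlated between libraries with a Spearman rho of 0.855 and a Pearson r of 0.859 on log2 values. These are descriptions across segments, which share the libraries, the locus and, in part, their sequence.

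Not all segments were detected. Of the 113, 92 reached a mean of 50 counts, and 21 did not. Of those 21, 9 were at 0 in both libraries (Ighv1-16, Ighv1-23, Ighv1-24, Ighv5-12-4, Ighv7-2, Ighv8-9, Ighv8-11, Ighv8-13 and Ighv16-1), and 7 held counts in both. Both segments annotated without a leader exon, Ighv1-16 and Ighv8-13, were among the 9. So was Ighv8-9, which lacks the cysteine codon, whereas Ighv8-2, which lacks it as well, held 99 counts in the control against 35 in the LysM-cre-labelled library. A further 4 were at 0 in the control only. Ighv6-7 was at 0 against 48 counts, where a count of 0 allows up to 3 counts in a library. Ighv8-4 was at 0 against 33, Ighv1-43 at 0 against 22 and Ighv1-49 at 0 against 14. Ighv6-5 was the reverse, at 8 counts in the control against 0 in the LysM-cre-labelled library. The segments next to the minimum were Ighv12-3, with a mean of 52.5 counts, and Ighv15-2, with 38.5.

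The ratio between libraries had a wider spread among V segments than among all rows. Of the 92 segments at or above the minimum, 12 were at least 2-fold higher in CPM in the LysM-cre-labelled library, where 2.42% of all 14573 rows were, and 19 were at least 2-fold lower, where 2.35% of all rows were. Together that was 33.7% of the segments against 4.78% of all rows and 3.27% of the 12120 protein-coding rows (1.62% higher and 1.65% lower). The split turned round, to 17 higher and 15 lower, when the segments were scaled to their own summed counts. With the same factor, 3.45% of all rows were higher and 1.7% lower. At a minimum mean of 200 counts the split narrowed to 11 higher and 13 lower of 81, or 29.6% against 2.58% of all rows. On the FPKM + 1 scale, with a mean of 1 FPKM or more, 12 of 95 segments were higher and 16 lower, where 1.31% and 1.18% of all rows were. The kappa V segments were like the heavy chain ones, with 18 higher and 17 lower of 92, or 38%. The median log2 CPM ratio of the heavy chain segments was −0.19, and the quartiles were −0.62 and 0.41, an interquartile range of 1.04. It was 0.30 over all rows and 1.43 over the kappa segments. Counting error was smaller than most of these differences. The interval of the ratio lay wholly above 1 for 33 segments, wholly below 1 for 51 and held 1 for 8, and it lay wholly beyond 2-fold for all 12 higher and for 13 of the 19 lower segments. The nearest segments to the 2-fold line were Ighv1-7 (ratio 2.24) and Ighv5-9-1 (0.498) beyond it and Ighv1-47 (1.95) and Ighv10-1 (0.523) within it.

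The spread narrowed as counts rose but stayed wider than that of other rows. Among segments with a mean of 50 to under 500 counts, 63.2% of 19 were beyond 2-fold, against 10.3% of all rows in that range. From 500 to under 2000 counts it was 32.5% of 40 segments against 2.88% of all rows. At 2000 counts or more it was 18.2% of 33 segments, 2 higher and 4 lower, against 1.63% of all rows.

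**Figure D2:**
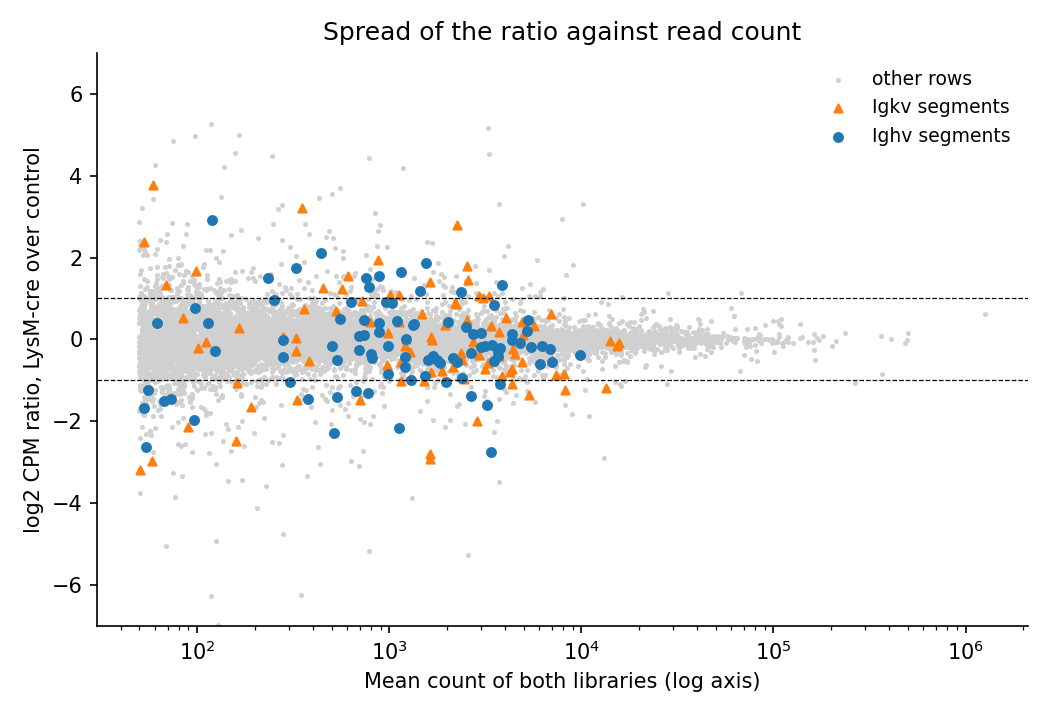
The log2 CPM ratio of the LysM-cre-labelled library over the control against the mean count of both libraries (log axis), for 92 Ighv segments (blue), 92 Igkv segments (orange triangles) and the other rows with a mean count of 50 or more (grey; 4 rows lie beyond the axis, and rows at 0 in a library are not drawn). Dashed lines mark 2-fold. The V segments of both chains scatter beyond the dashed lines at counts where the grey rows lie close to 0.

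The segments beyond 2-fold are described next, and since their ratio chose them, their levels are a description. The 19 lower segments took 16.5% of Ighv counts in the control and 6.48% in the LysM-cre-labelled library. The 12 higher ones held 7534 counts in the control, 4.0%, against 20283, or 12.2%. Ighv5-12 stood out by its level, with 5895 counts in the control against 875 in the LysM-cre-labelled library (250 and 37.2 FPKM), 6.72-fold lower (CPM ratio 0.149, 95% interval 0.138 to 0.160). Alone it took 3.13% and 0.526% of Ighv counts. Ighv2-6-8 was 6.19-fold lower, but on 93 and 15 counts (ratio interval 0.0870 to 0.280). Ighv1-62-2 held 853 and 175 counts (ratio 0.206, 0.174 to 0.242), and Ighv1-56 held 153 and 39 (0.255, 0.175 to 0.365). The V exon of Ighv1-62-2 is identical to that of Ighv1-71, and the pair together had a ratio of 1.15, so its own value is uncertain. Among well-covered segments, Ighv3-8 (4822 and 1592 counts) and Ighv2-3 (3860 and 1479) were also more than 2-fold lower.

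Among the higher segments, Ighv3-4 had the highest ratio, 7.55 (95% interval 5.08 to 11.6), on 28 counts in the control against 211 in the LysM-cre-labelled library. Ighv3-1 held 166 and 718 counts (4.33, 3.66 to 5.16), and Ighv2-5 held 669 and 2436 (3.65, 3.35 to 3.98). The V exon of Ighv2-5 is 97.7% identical to that of Ighv2-4 and 97.0% identical to that of Ighv2-2. These 3 segments together held 5007 and 6218 counts, a ratio of 1.24, so the value of Ighv2-5 alone is less certain than its interval. Next came Ighv1-63 with 150 and 504 counts (3.37, 2.80 to 4.07), Ighv9-1 with 559 and 1754 (3.14, 2.86 to 3.46) and Ighv1-71 with 449 and 1314 (2.93, 2.63 to 3.27). In absolute terms the gain was largest at Ighv1-52, which held 2199 counts in the control against 5513 in the LysM-cre-labelled library (93.7 and 236 FPKM; ratio 2.51, 2.39 to 2.64).

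**Figure D3:**
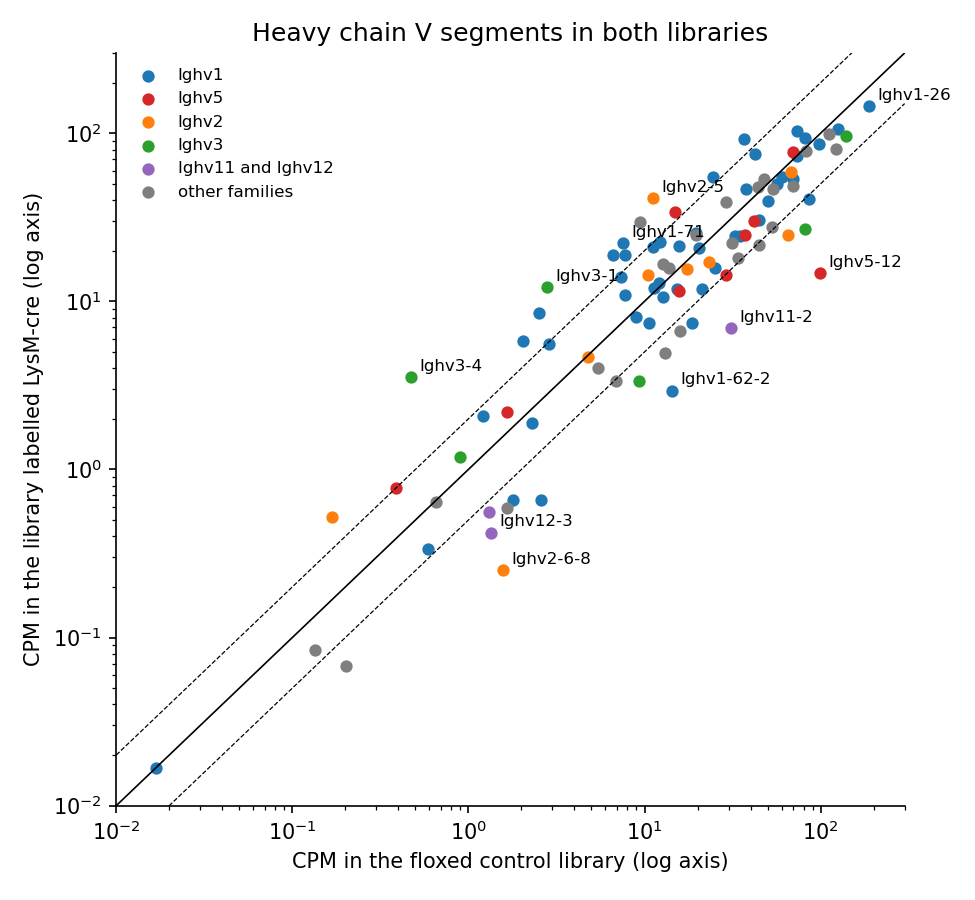
CPM of each Ighv segment in the LysM-cre-labelled library against the floxed control (both axes log), coloured by family, for the 99 segments with counts in both libraries. The solid line marks equal CPM and the dashed lines 2-fold, and Ighv5-12 (5895 and 875 counts) lies farthest below among the well-covered segments.

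Segments with textbook roles in defined responses were followed by name. Ighv11-2, used by B-1a cells against phosphatidylcholine, held 1846 counts in the control against 412 in the LysM-cre-labelled library (59.9 and 13.4 FPKM; ratio 0.224, 95% interval 0.200 to 0.249). Ighv12-3, the other segment of that specificity, was low in both, at 80 and 25 counts (0.313, 0.191 to 0.496). Ighv11-1, whose V exon differs from that of Ighv11-2 at 4 of 307 bases, held 78 and 33 counts, so all 3 were lower. Ighv7-1, the segment of the classic phosphorylcholine antibodies, held 2008 and 1068 counts (0.533, 0.494 to 0.574). Ighv1-72, the segment of the C57BL/6 response to the hapten NP, held 4036 and 3288 (0.816, 0.779 to 0.855). Ighv5-2, often rearranged early in B cell development, held only 98 and 130 counts (1.33, 1.01 to 1.75). Of 7 listed genes of B-1 and marginal zone cells, all reached the minimum, with 3 above and 4 below a ratio of 1, none beyond 2-fold, and a median log2 ratio of −0.03. In bulk RNA the counts of these genes cannot be assigned to B cells. Plac8 (50264 and 38083 counts) and Spn (28895 and 29520) each held more counts than any Ighv segment. Bhlhe41, a transcription factor of B-1a cells, held 309 and 220 counts (0.713, 0.597 to 0.851), and Zbtb32 held 203 and 141 (0.696, 0.557 to 0.867). Cd5, which T cells share, held 3140 and 3646.

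By family, the sums differed less than single segments. The largest family, Ighv1 (53 segments), held 93221 counts in the control against 93283 in the LysM-cre-labelled library, a ratio of 1.00 (95% interval 0.994 to 1.01). Because the other families were lower, its share of Ighv counts was 49.4% in the control and 56.1% in the LysM-cre-labelled library. Of its 46 segments at or above the minimum, 7 were at least 2-fold higher and 5 at least 2-fold lower, where 2.42% and 2.35% of all rows were. Their log2 ratios ran from −2.28 to 1.75. Ighv5 (10 segments) held 18403 and 12445 counts (0.678, 0.662 to 0.693). Its leader in the control was Ighv5-12, with 32.0% of the family's counts, and in the LysM-cre-labelled library Ighv5-17 (4165 and 4577 counts), with 36.8%. Ighv3 (6 segments) held 13963 and 8482 counts (0.609, 0.592 to 0.625), with Ighv3-4 and Ighv3-1 higher while Ighv3-5 and Ighv3-8 were lower. Ighv2 (9 segments) held 12014 and 10554 (0.880, 0.857 to 0.904).

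The smaller families were each carried by 1 or a few segments. Ighv3-6 took 59.8% and 67.1% of Ighv3 counts, Ighv6-3 took 80.9% and 67.1% of Ighv6 counts, and Ighv9-3 took 74.3% and 70.8% of Ighv9 counts. Ighv8 (ratio 0.937) and Ighv9 (0.940) were close in level, Ighv6 (0.794), Ighv14 (0.746), Ighv7 (0.848) and Ighv4 (0.874) somewhat lower, and Ighv10 lower at 0.676. Their most abundant segments were Ighv14-2 (177 and 122 FPKM), Ighv7-3 (118 and 132), Ighv4-1 (115 and 101) and Ighv10-1 (132 and 68.8). Ighv11 had the lowest ratio of any family, 0.232 (0.209 to 0.257), on 1924 and 445 counts. Ighv12 (0.313), Ighv13 (Ighv13-2, 322 and 237 counts) and Ighv15 (Ighv15-2, 39 and 38) had 1 segment each, and the single Ighv16 segment was not counted in either library. No family sum except that of Ighv1 had a ratio at or above 1.

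**Figure D4:**
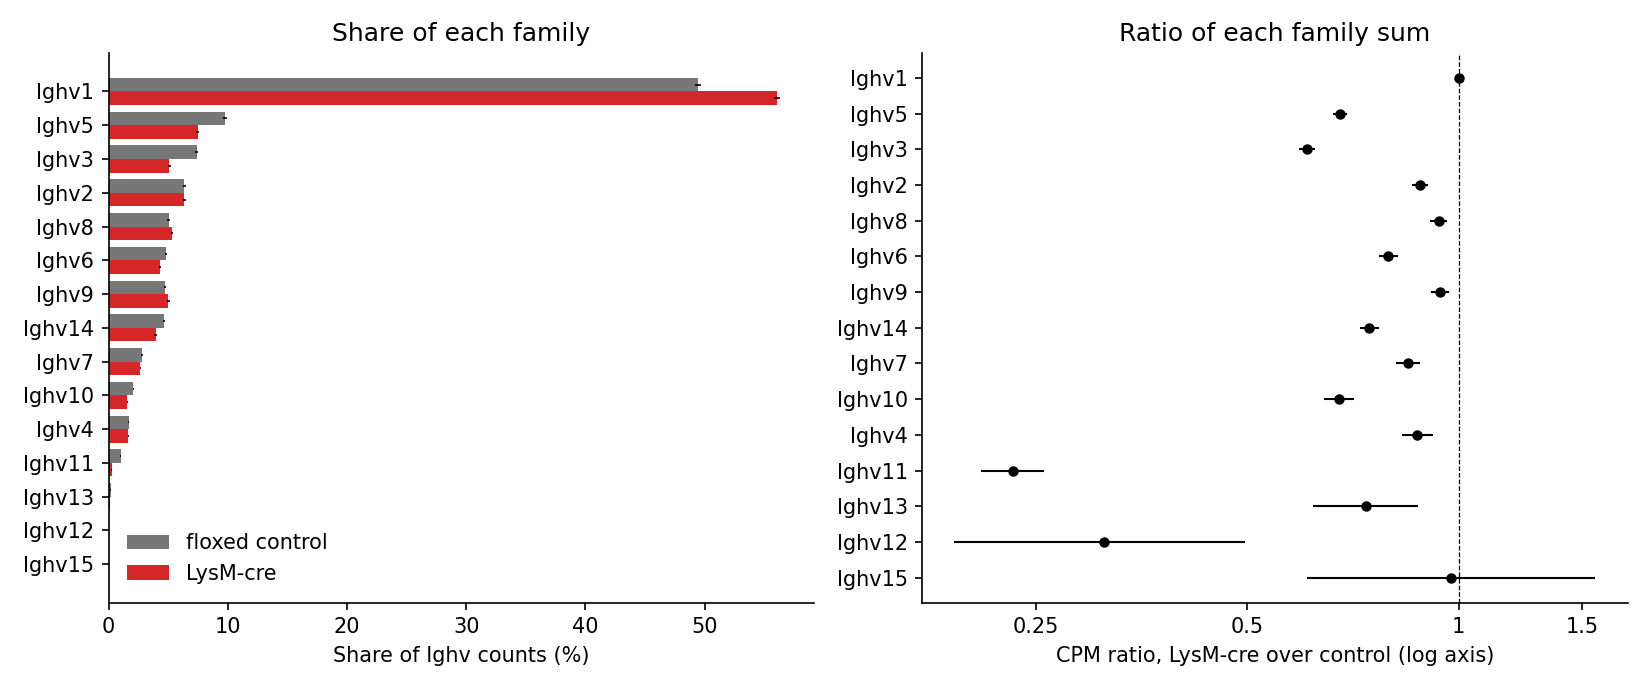
Left, share of Ighv counts held by each family (%) in the floxed control (grey) and the LysM-cre-labelled library (red), with 95% Clopper-Pearson intervals. Right, CPM ratio of each family sum (log axis) with its 95% counting interval. Ighv1 lies at 1.00 and Ighv11 and Ighv12 lie farthest to the left, at 0.232 and 0.313.

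Position along the locus went with part of this pattern. The segments were divided in locus order into 4 groups, of 29, 28, 28 and 28, starting at the D side. The group nearest the D segments held 45338 counts in the control against 33093 in the LysM-cre-labelled library, a ratio of 0.731 (95% interval 0.721 to 0.742). A large part of this difference lay in Ighv5-12 alone, with 5895 and 875 counts, which held 13.0% of the group's counts in the control. The next group had a ratio of 0.857 (0.846 to 0.868). The distant groups had ratios of 0.976 (0.963 to 0.988) and 0.966 (0.954 to 0.978). In the same order, 24, 24, 21 and 23 segments of these groups reached the minimum. Of these, 7, 8, 3 and 1 were at least 2-fold lower, where 2.35% of all rows were. Those at least 2-fold higher numbered 3, 3, 4 and 2, where 2.42% of all rows were. Position and family cannot be told apart here, since the Ighv5 and Ighv2 segments lie near the D side and the Ighv1 segments at the far side. Neighbouring segments lay as far apart in ratio as distant ones. Of 91 neighbouring pairs, 48 lay on opposite sides of a ratio of 1, and the median absolute log2 difference was 1.07 between neighbours and 0.97 between all pairs. Ighv2-5 (log2 ratio 1.87) and Ighv5-12 (−2.75) are such neighbours.

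**Figure D5:**
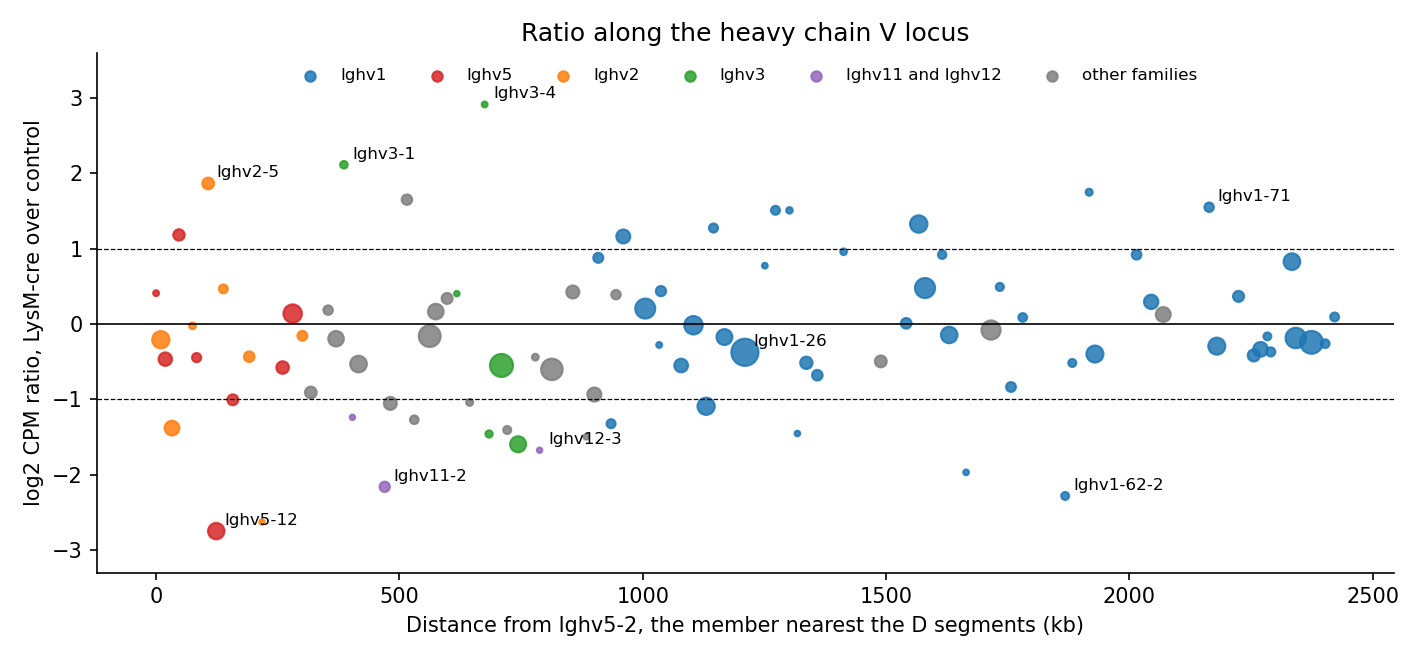
The log2 CPM ratio of each of 92 segments against its distance in kb from Ighv5-2, the segment nearest the D segments, coloured by family, with larger points for segments with more counts. Dashed lines mark 2-fold. Points below the lower line lie mostly in the part nearer the D side, 7 of 24 in the nearest and 8 of 24 in the next position group.

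Many segments are close copies of others, which limits what a single row shows. Median identity of V exons was 84.9% within a family and 59.4% between families, and 57 segments had another of at least 95% identity by a chain of pairs, forming 20 groups. Ighv1-62-2 and Ighv1-71 have identical V exons of 313 bases, of which the last 300 are shown because the values of their rows went opposite ways.
Ighv1-62-2 (chr12:115446409-115446708): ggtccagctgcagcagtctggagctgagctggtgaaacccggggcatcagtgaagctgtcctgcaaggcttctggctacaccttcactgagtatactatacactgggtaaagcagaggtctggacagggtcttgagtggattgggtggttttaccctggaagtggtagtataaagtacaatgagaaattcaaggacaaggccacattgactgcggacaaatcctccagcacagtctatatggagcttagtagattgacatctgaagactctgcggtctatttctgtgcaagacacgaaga
Ighv1-71 (chr12:115742205-115742504): the same letters throughout.
Ighv1-62-2 held 853 counts in the control against 175 in the LysM-cre-labelled library, while Ighv1-71 held 449 and 1314. The pair together held 1302 and 1489, a ratio of 1.15 (95% interval 1.06 to 1.24). A read inside this exon fits both rows. The sources used here do not give how such reads were assigned, so the values of these rows are uncertain.

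Ighv1-20 and Ighv1-37 differ at 4 of 305 bases, given in capitals in the last 300, and also went opposite ways.
Ighv1-20 (chr12:114723772-114724071): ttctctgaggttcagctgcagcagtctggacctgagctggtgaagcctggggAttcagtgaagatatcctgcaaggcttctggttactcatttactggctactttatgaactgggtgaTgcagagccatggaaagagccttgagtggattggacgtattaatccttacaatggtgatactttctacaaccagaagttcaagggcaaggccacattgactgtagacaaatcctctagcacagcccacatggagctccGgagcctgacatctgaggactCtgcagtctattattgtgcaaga
Ighv1-37 (chr12:114896238-114896537): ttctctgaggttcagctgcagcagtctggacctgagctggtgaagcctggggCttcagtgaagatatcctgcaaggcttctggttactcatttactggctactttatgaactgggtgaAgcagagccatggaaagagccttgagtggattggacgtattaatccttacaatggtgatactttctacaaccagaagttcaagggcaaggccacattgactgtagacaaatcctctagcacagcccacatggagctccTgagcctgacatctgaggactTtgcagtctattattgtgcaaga
Ighv1-20 held 461 counts in the control against 1114 in the LysM-cre-labelled library, and Ighv1-37 held 107 and 39. Together they held 568 and 1153 (ratio 2.03, 95% interval 1.84 to 2.25). Ighv9-1 (559 and 1754 counts) and Ighv9-2 (950 and 393), which differ at 14 of 305 bases, made a similar pair with a summed ratio of 1.43. The Ighv11 pair differed from these, since both members were lower and the sum had a ratio of 0.232.

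Close copies lay about as far apart in ratio as other segments. Of 46 pairs of at least 95% identity with both members at or above the minimum, 25 lay on opposite sides of 1, and their median absolute log2 difference was 0.87, against 0.91 for 1130 pairs within a family and 0.97 for all 4186 pairs. With the 20 groups merged, 59 units reached the minimum. Of these, 7 were at least 2-fold higher and 12 at least 2-fold lower, where 2.42% and 2.35% of all rows, left unmerged, were. Of the 19 merged groups among the 59 units, 3 were higher, 1 was lower and 15 lay within 2-fold. Their interquartile range of the log2 ratio was 0.63. Of the 40 segments with no other of the 113 at 95% identity or more, 4 were higher, 11 lower and 25 within 2-fold. Their interquartile range was 1.43, and pseudogene rows were not compared. Merged groups sum the counts of several rows, and the spread narrowed as counts rose. The parts of read count and of read assignment among close copies in the spread were not tested. The largest group, Ighv1-26 with Ighv1-18, Ighv1-19, Ighv1-22 and Ighv1-34, held 12.9% of Ighv counts in the control and 11.7% in the LysM-cre-labelled library (ratio 0.796, 0.782 to 0.812). The group of Ighv1-53, Ighv1-55, Ighv1-62-3, Ighv1-64 and Ighv1-72 held 8.93% and 9.77%. Ighv2-6-8 was lower alone, on 93 and 15 counts. The group it forms with its close copies Ighv2-6 and Ighv2-9 held 1752 and 1802 counts. Ighv2-6-8 is too small a part of that sum for the sum to show its own difference. Ighv5-12, Ighv3-1, Ighv3-4 and Ighv1-63 were in no such group.

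The constant genes, to which every heavy chain V segment is spliced, also differed in both directions. Ighm held 358894 counts in the control against 170979 in the LysM-cre-labelled library (2848 and 1360 FPKM; ratio 0.477, 95% interval 0.475 to 0.480). Ighg3 held 14145 and 7239 (0.513, 0.498 to 0.528). The genes of other IgG classes were higher, with Ighg2c at 506 and 857 FPKM (1.70, 1.68 to 1.72), Ighg2b at 446 and 567 (1.27) and Ighg1 at 47.4 and 64.6 (1.36). Igha, the constant gene of IgA, was close in level at 2792 and 2756 FPKM. These files do not link a V segment to a constant gene, so whether the segments that were lower were those joined to Ighm was not tested.

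Genes of the cells that use these segments mostly differed less than the segments themselves. Of 16 listed B cell genes, 14 were lower and 2 higher, none by 2-fold, with a median log2 ratio of −0.16 against 0.00 over all rows. Their summed level was 287 FPKM in the control against 257 in the LysM-cre-labelled library, and none was at 0. Cd79a, a signalling chain of the B cell receptor, stood at 74.9 and 67.3 FPKM. Of 14 plasma cell genes, 10 were lower and 4 higher (median −0.05), and only Jchain was beyond 2-fold (ratio 2.18, 2.15 to 2.20). Their summed level was 467 and 762 FPKM, which Jchain, at 255 and 555, mostly made up. Xbp1, a transcription factor of secreting cells, stood at 46.4 and 45.5 FPKM. The octamer-binding factor Pou2f2, which acts on V segment promoters, stood at 31.0 and 29.4 FPKM, and its coactivator Pou2af1 at 21.3 and 18.2. Of 9 genes of B cell precursors, 4 reached the minimum, 3 higher and 1 lower, none by 2-fold (median 0.12). The higher ones were Vpreb3 (105 and 131 counts), Il7r (8064 and 8949) and Cd93 (5904 and 6260). In bulk RNA their counts cannot be assigned to B cell precursors. Vpreb2 and Igll1, parts of the surrogate light chain, were at 0 in both libraries, and Rag1 and Rag2, which together cut V, D and J segments, held 12 and 32 counts and 11 and 0. Dntt, which adds bases at the joins, was the 1 lower gene of those 4, with 202 and 128 counts (ratio 0.635, 0.505 to 0.796). Of 7 germinal centre genes, 5 were higher and 2 lower (median 0.19). The part of B-lineage cell numbers in the V segment values was not tested.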

How the data were processed

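Poly(A) RNA was sequenced as paired ends, per the labels' protocols. The submitters' processing notes name HISAT2 2.0.4, StringTie 1.3.4d, DESeq2, edgeR and cutadapt 1.9 with build mm10, without roles or settings. The deposited count values are whole numbers per gene row, not normalized. FPKM values, as deposited, are relative to row length and depth, with 0.0001 in place of 0. The sources used here do not say how reads were assigned by strand or among close copies. The 8 columns of other libraries were not used. Members and lists were chosen with earlier results of these data known. Single values of a few listed genes are left out here.

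CPM ratios (LysM-cre over control) carry exact 95% intervals. A mean of 50 counts over both libraries was required for counts of segments beyond 2-fold, which is a size rule and not a test, each genotype having 1 library. V exons were taken from GENCODE M21 and aligned globally with Biopython 1.88. One segment, Ighv1-5, overlapped another row on its strand (Mir7094-2, at 0). Segments were named by rank in counts (10 per library), ratio (6 highest and 6 lowest), family leadership, known role or closeness to a threshold. Others shown beside them (Ighv1-20, Ighv1-37, Ighv9-2, Ighv11-1, Ighv3-5, Ighv3-8, Ighv2-3, Ighv8-2, undetected segments and members of merged groups) were chosen after their values were seen. Alternatives used TMM and RLE factors (edgeR 4.0.16, R 4.3.3), other minimums, folds, pseudocounts and merged copies. Calculations used scipy 1.17.1, pandas 2.3.3 and numpy 2.4.6 under Python 3.11.15, with plots from matplotlib 3.10.9, and were tested on simulated data.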

Additional observations from a re-analysis of the deposited data

Results flagged for a closer look

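Counts also appeared in Ighv rows outside the 113 segments. The 70 rows annotated as V pseudogenes held 148 counts in the floxed control library against 357 in the LysM-cre-labelled library, above the 3 counts that a count of 0 allows. Most of the difference lay in Ighv1-2, with 6 counts in the control against 231 in the LysM-cre-labelled library, and Ighv1-33 went the other way with 26 and 0. The part of reads from close copies in these values was not tested.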

How the results depend on the processing

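The median log2 ratio and its interquartile range moved by less than the counting interval of a typical segment under each alternative tried. The summed CPM ratio stayed within its own counting interval (0.878 to 0.890) with TMM or RLE factors and with pseudogene rows added. As a share of summed FPKM, which weights short rows more, the segments made up 2.16% in the control and 1.89% in the LysM-cre-labelled library. Without Ighv1-26 their share of counts was 0.298% and 0.266%, and the CPM ratio 0.891. By FPKM the leading share was 6.19% and 5.39% and the effective number 42.8 and 45.2. Without Ighv1-26 the effective number was 45.8 and 47.5. With close copies merged the leading share was 12.9% and 11.7%, and the effective number 21.7 and 21.8. Fewer units were then left, and of 59, 7 were higher and 12 lower beyond 2-fold, where 2.42% and 2.35% of all unmerged rows were. At 4-fold 2 segments were higher and 4 lower of 92, where 0.57% and 0.576% of all rows were. Scaling to the summed Ighv counts moved the split from 12 higher and 19 lower to 17 and 15, where 3.45% and 1.7% of all rows were with the same factor. A minimum of 10 counts gave 17 higher and 19 lower of 99, or 36.4%, against 12.6% of all rows. Of 37 named segments, 35 stayed within their counting interval on the log2(FPKM + 1) scale and 37 with TMM factors, and none changed direction. Depth limits segments with few counts, whose intervals are wide, such as 0.608 to 1.57 for Ighv15-2. No paired analysis was possible because each genotype had 1 library.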
